A study of Mus musculus with 17 samples.

Results

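The response of wild-type (WT) lacrimal gland organoid clones to differentiation medium was read by setting 2 libraries grown in differentiation medium (DM) against 2 libraries grown in expansion medium (EM). They are 4 of the 17 libraries of a mouse RNA-seq series, and were chosen by their labels: WT clone 1 and WT clone 2, each in both media. Organoids are epithelial cultures grown in basement membrane extract, and a clonal line descends from a single cell. How long the clones spent in DM is unclear: the growth protocol describes 7 days in EM, or 2 days in EM followed by DM for 5 days, while the series text has the clones in either medium for 7 days. Media composition and the strain, sex and age of the mice were not given in any source used here. Other libraries used for comparison were 2 clones labelled Pax6-KO and uncloned WT organoid lines 6, 7 and 8, all in EM and in DM. The 3 libraries of gland tissue in the series entered only the fit of the uncloned lines. Each label has 2 clones, and p-values here measure the spread between these few libraries.

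The lacrimal gland secretes the watery layer of tears. Acinar cells make most tear proteins, ducts modify the fluid by moving ions and water, myoepithelial cells squeeze the acini, and basal cells can renew the epithelium. Media that expand epithelial organoids usually supply growth factors and signals that keep cells dividing, and differentiation media usually withdraw some of them. Wnt, Notch, BMP and TGF-beta pathways, which steer such choices, switch on their own feedback inhibitors, so transcripts such as Axin2 or Smad7 are commonly used as their readouts.

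Total counts were 22019188 and 21049586 in EM and 22500534 and 18282059 in DM (clone 1 and clone 2, as in every pair of values below). Mitochondrial transcripts took 1.67% and 1.77% of counts in EM and 1.06% and 1.11% in DM, and the part of this difference in the results was not tested. Levels are counts-per-million values (CPM) on scaled library sizes and are not divided by gene length, so they are compared between libraries and not between genes. Fold changes are log2 of DM over EM ± SE from edgeR, with genes called where the adjusted p (Benjamini-Hochberg, all genes tested) was under 0.05. Pax6, the eye transcription factor targeted in the labelled knockout (ENSMUSG00000027168, chromosome 2, 105668900 to 105697364), stood at 245 and 276 CPM (EM) against 219 and 280 CPM (DM) (-0.06 ± 0.39, adjusted p = 0.936). In the clones labelled Pax6-KO it read 172 and 272 CPM (EM) against 135 and 309 CPM (DM), so the level of Pax6 does not check that label.

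The cultures carried epithelial markers in all 4 libraries. Epcam, an epithelial adhesion protein, stood at 639 and 839 CPM (EM) against 1665 and 1833 CPM (DM) (1.24 ± 0.16, adjusted p = 0.00542). Of the 12 genes of the general epithelium list, 4 rose and none fell. Over all genes tested, 9.61% rose and 6.13% fell, and the marker counts in this paragraph stand beside those shares. Some markers of other cell types were absent: the leukocyte gene Ptprc, the macrophage genes Adgre1 and C1qa and the fibroblast gene Dcn had no count in any of the 4 libraries, and no lymphocyte gene of 17 had enough counts to test. These were 3 of the 4 defining markers of the macrophage list and 1 of the 4 of the fibroblast list. Genes of nerve, glia, fat and muscle summed to 255 and 237 CPM (EM) against 310 and 311 CPM (DM), and 1 of 6 tested rose. Of 17 fibroblast genes 3 were tested and 6 had no counts, and the summed level of the list was 244 and 279 CPM (EM) against 76.9 and 128 CPM (DM), nearly all of it Fbln1, a matrix protein also made by epithelia, which fell (-1.38 ± 0.35, adjusted p = 0.0417) but lost its call without DM of clone 1 or either EM library (adjusted p up to 0.144). Macrophage genes summed to 497 and 477 CPM in EM and to 767 and 1052 CPM in DM, mostly Cd14, which rose (1.08 ± 0.29, adjusted p = 0.0497) with a call that was lost when EM 1, EM 2 or DM 2 was left out (adjusted p up to 0.201). Endothelial and pericyte genes summed to 77.04 and 95.05 CPM (EM) against 214 and 235 CPM (DM). Rgs5, a pericyte marker, was the 1 called gene of that list, at 0.134 and 0.563 CPM (EM) against 9.29 and 26.1 CPM (DM) (5.65 ± 1.45, adjusted p = 0.0416), and it lost its call with any 1 library left out (adjusted p up to 0.194). The fibroblast genes tested beside Fbln1 were not called. The median over the 3 tested was 5.11 (log2), at median levels of 0 CPM in both EM libraries and 0.275 and 0.342 CPM in DM. In a bulk library, more cells of a type and more RNA per cell cannot be told apart.

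Of 14282 genes tested, 1372 rose in DM (9.61%) and 875 fell (6.13%). Counts of list members above and below are read against these shares. In all 2247 called genes both DM libraries lay on the same side of both EM libraries, as did 29.3% of all tested genes in each direction. Large changes were mostly rises: 857 called genes rose at least 2-fold and 334 fell at least 2-fold, and 275 rose and 59 fell at least 8-fold. The median called gene changed by 1.08 (log2, either direction), with a median SE of 0.183. Medium separated the libraries more than clone did, since 2634 and 2474 genes differed at least 2-fold between the media within clone 1 and clone 2, against 1190 between the clones in EM and 1692 between them in DM. The labels give the same clone in both media. With the clone as a block, 2122 genes rose (14.9%) and 1528 fell (10.7%), including 2245 of the 2247 with the same direction.

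The number of calls leaned on single libraries. Without EM of clone 1, 586 genes rose (4.1%) and 215 fell (1.51%), and without EM of clone 2, 704 rose (4.93%) and 348 fell (2.44%). Without DM of clone 1, 908 rose (6.36%) and 527 fell (3.69%), and without DM of clone 2, 1209 rose (8.47%) and 770 fell (5.39%). From the 4 WT libraries alone, 640 rose (4.48%) and 261 fell (1.83%). In all, 622 genes, 455 that rose and 167 that fell, were called in each of the 4 fits with 1 library left out. A named gene below passed in all 4 unless its paragraph says otherwise.

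**Figure D1:**
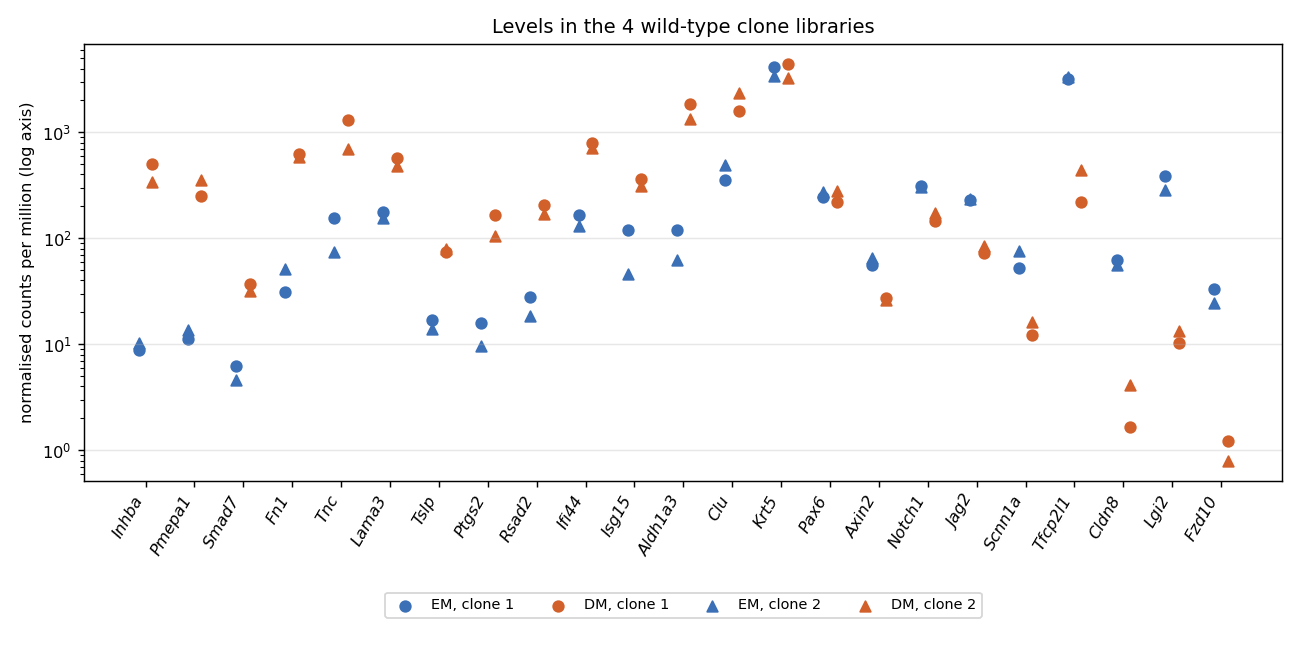
Normalised CPM (log axis) of 23 genes in the 4 WT clone libraries, EM in blue and DM in orange, clone 1 as circles and clone 2 as triangles, with no error bars since each point is 1 library. Inhba, Pmepa1 and Aldh1a3 lie far higher in both DM libraries, Lgi2, Fzd10 and Cldn8 far lower, and Pax6 and Krt5 overlap between the media.

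The 10 largest rises among genes reaching 10 CPM were all under 1 CPM in both EM libraries. Tnfrsf11b, the decoy receptor osteoprotegerin, had no count in EM and 4.26 and 29.7 CPM in DM, at least 227-fold higher against 3 counts over the EM group, but did not pass without EM of clone 1 or of clone 2 (adjusted p = 0.0689 and 0.0586). Adam12, a membrane metalloprotease, had no count in EM and 17.6 and 11.8 CPM in DM, at least 219-fold higher. Both DM clones carried these transcripts, and neither EM clone did.

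Il1rl1, the receptor for the alarmin interleukin-33, went from 0.0446 and 0.0938 CPM to 158 and 34.1 CPM, a ratio of 1497 (95% counting interval 512 to 7261). Lgr6, a receptor for R-spondins that marks epithelial stem cells in skin, went from 0.0892 and 0.234 CPM to 77.4 and 45.7 CPM (8.53 ± 0.43, adjusted p = 4.21e-04; ENSMUSG00000042793, chromosome 1, 134983301 to 135105276). Acsbg1, an acyl-CoA synthetase, went from 0.535 and 0.797 CPM to 113 and 67.1 CPM (7.07 ± 0.35, adjusted p = 4.21e-04). In these 3 genes clone 1 reached the higher DM level. Acod1, which makes itaconate in activated macrophages, rose to 23.6 and 24.2 CPM (6.98 ± 0.97), Ctsw, a cathepsin, to 16.7 and 7.52 CPM (6.65 ± 0.94), and Ccbe1, a secreted factor of lymphatic growth, to 22.1 and 15.7 CPM (6.64 ± 0.91; adjusted p at most 0.00614), each from under 0.3 CPM in EM. P2rx2, an ATP-gated channel, rose to 12.3 and 8.71 CPM, a ratio of 156 (95% counting interval 53.05 to 760), but did not pass without EM of clone 1 or 2 (adjusted p = 0.0880 and 0.0678). Postn, the matricellular protein periostin, completed the 10 and is described with the matrix genes.

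The 10 largest falls were led by a pair of glandular kallikreins. Klk1b11, a secreted kallikrein protease, went from 98.6 and 38.2 CPM (EM) to 0.732 and 0.626 CPM (DM) (-6.63 ± 0.97, adjusted p = 0.00678), and Klk1b9 from 12.5 and 8.07 CPM to 0.0458 CPM and 0, a ratio of 408 (95% counting interval 72.9 to 16160). The Klk1b genes are a cluster of close copies, so a value for any single one is uncertain. Lgi2, a secreted protein best known in the nervous system, fell from 383 and 287 CPM to 10.4 and 13.4 CPM (-4.82 ± 0.30), and Fzd10, a Wnt receptor, from 33.1 and 24.6 CPM to 1.24 and 0.797 CPM (-4.80 ± 0.31; both adjusted p = 8.64e-04). Both clones fell to a small fraction of their own EM level. Cldn8, a claudin that seals tight junctions to cations, fell from 62.2 and 56.6 CPM to 1.65 and 4.10 CPM (-4.39 ± 0.38), and Fxyd2, the gamma subunit of the sodium pump, fell from 32.4 and 14.6 CPM to 0.961 and 2.22 CPM (-3.90 ± 0.65). Adh7, an alcohol and retinol dehydrogenase, fell from 141 and 180 CPM to 5.49 and 14.4 CPM (-4.02 ± 0.42), and Ppargc1a, a coactivator of mitochondrial biogenesis, from 17.5 and 9.80 CPM to 0.641 and 1.25 CPM (-3.86 ± 0.43). The phospholipase Plce1 (-4.04 ± 0.35) and Sptssb, a subunit of serine palmitoyltransferase (-5.66 ± 1.04), were the others, and all of these passed at adjusted p up to 0.0145. Sptssb did not pass without DM of clone 1 or EM of clone 1 (adjusted p = 0.0660 and 0.0555).

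**Figure D2:**
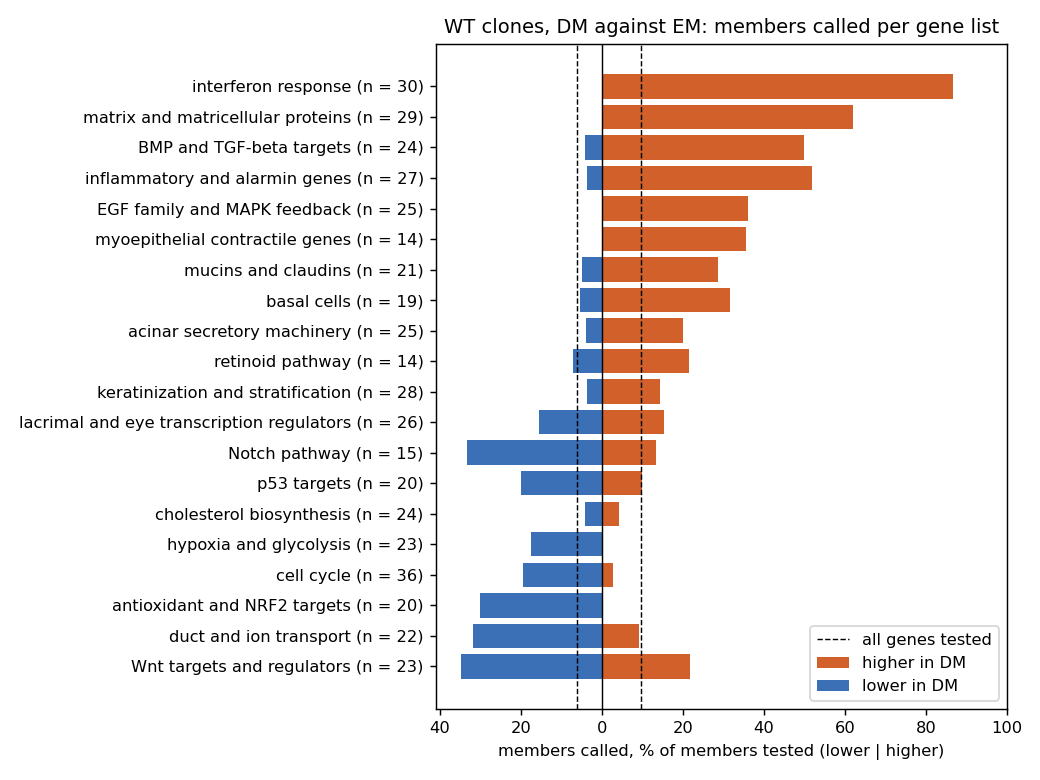
Share of tested members called higher (orange, right) or lower (blue, left) in DM for 20 gene lists, with the number tested beside each name and dashed lines at 9.61% and 6.13%, the shares over all genes tested. Interferon, matrix and inflammatory lists extend furthest to the right and Wnt, Notch, duct and antioxidant lists furthest to the left. The lists were chosen with earlier results of these data known, so bars beyond the dashed lines are a description.

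Targets and regulators of BMP and TGF-beta signalling were mostly higher in DM. Of 24 tested members 12 rose and 1 fell, with a median of 1.41 (log2), against -0.00018 over all genes tested. All gene lists were chosen with earlier results of these data known. Their shares and medians are therefore descriptions and not independent support. Among ligands, Inhba, which encodes the activin A subunit, went from 8.88 and 10.3 CPM (EM) to 499 and 340 CPM (DM) (5.45 ± 0.23, adjusted p = 3.90e-04; ENSMUSG00000041324, chromosome 13, 16011851 to 16031621), the lowest p of the comparison. Tgfb1 rose from 75.3 and 82.5 CPM to 116 and 126 CPM (0.62 ± 0.09, adjusted p = 0.00816), and Bmp7 fell from 45.4 and 57.9 CPM to 19.2 and 31.0 CPM (-1.04 ± 0.24, adjusted p = 0.0294). The ligand genes therefore did not move as 1 group.

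Feedback inhibitors of TGF-beta and activin rose in both clones. Pmepa1, which sequesters Smad proteins, went from 11.3 and 13.6 CPM to 251 and 356 CPM (4.61 ± 0.29, adjusted p = 8.64e-04). Smad7, an inhibitory Smad, went from 6.25 and 4.64 CPM to 36.9 and 32.2 CPM (2.66 ± 0.26, adjusted p = 0.00225), and the co-repressor Skil from 63.3 and 61.0 CPM to 265 and 260 CPM (2.08 ± 0.11, adjusted p = 4.21e-04). Among readouts of BMP, Id3 rose from 1.20 and 1.08 CPM to 4.76 and 5.07 CPM (2.10 ± 0.38, adjusted p = 0.0138), Id1 stood at 6.60 and 12.6 CPM (EM) against 16.3 and 39.3 CPM (DM) (adjusted p = 0.0805, and 0.00613 with the clone as a block), and the inhibitory Smad6 stood at 11.1 and 11.9 against 13.5 and 15.1 CPM (0.32 ± 0.19, adjusted p = 0.311). Tgfbi, a secreted TGF-beta target, gave adjusted p = 0.0739, and 0.0396 with the block. With the block 18 members rose and 1 fell. The rises numbered 7 without EM of clone 1, 10 without EM of clone 2, 14 without DM of clone 1 and 12 without DM of clone 2. Tgfb1 did not pass without EM of clone 1 (adjusted p = 0.0585), Id3 without either EM library (up to 0.0735) and Bmp7 without DM of clone 1 or either EM library (up to 0.126).

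Genes of the extracellular matrix, its adhesion receptors and its proteases were mostly higher in DM. Of 36 members 29 had enough counts to test, 18 rose and none fell, with a median of 2.36. Fn1, fibronectin, went from 31.0 and 51.9 CPM to 620 and 583 CPM (3.86 ± 0.45, adjusted p = 0.00381). Tnc, the matricellular protein tenascin C, went from 157 and 73.6 CPM to 1299.8 and 697 CPM (3.12 ± 0.43, adjusted p = 0.00587), and Ccn2, a matricellular target of TGF-beta and YAP, from 28.6 and 70.0 CPM to 562 and 381 CPM (3.26 ± 0.41, adjusted p = 0.00471). In all 3 the lower DM library stood more than 4 times above the higher EM library.

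The anchoring fibril collagen Col7a1 rose from 8.83 and 7.36 CPM to 50.6 and 43.7 CPM (2.54 ± 0.17), and the integrin Itgb6, which activates latent TGF-beta, from 18.4 and 17.5 CPM to 91.4 and 94.1 CPM (2.37 ± 0.17; adjusted p at most 0.00101). The urokinase Plau (3.23 ± 0.41), its receptor Plaur (2.24 ± 0.29) and the protease inhibitor Timp1 (3.66 ± 0.38) rose too (adjusted p at most 0.00494). Mmp13, a collagenase, had 2 counts in EM and stood at 4.03 and 4.73 CPM in DM, a ratio of 94.9 (95% counting interval 25.9 to 790). Sparc, a collagen-binding protein, stood at 0.223 and 1.64 CPM (EM) against 3.52 and 25.7 CPM (DM) (3.97 ± 1.11, adjusted p = 0.0536, and 2.61e-04 with the block), and the intermediate filament Vim at 0.223 and 1.59 CPM against 0.824 and 12.8 CPM (adjusted p = 0.329, and 0.00387 with the block). In both of these genes clone 2 had the higher level in each medium. The members that rose numbered 10 without EM of clone 1, 14 without EM of clone 2, 16 without DM of clone 1, 18 without DM of clone 2 and 11 from the 4 WT libraries alone. Beside this, the fibroblast list summed to 244 and 279 CPM (EM) against 76.9 and 128 CPM (DM), nearly all Fbln1, with Dcn at 0 in all 4 libraries and Col1a1 at 0.0446 and 0.0469 CPM (EM) against 0.229 and 0.399 CPM (DM). The median change over its 3 tested members was 5.11 (log2), with median levels of 0.275 and 0.342 CPM in DM.

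The Mmp13 promoter is shown because AP-1, the Fos and Jun complex, is known to drive that gene. The window is from RefSeq on GRCm38.p6, chr9:7272439-7272513 on the plus strand, 5′ to 3′, and ends just before the annotated start. Capitals mark the match to the AP-1 letters TGANTCA, 35 to 29 bases before the start.
Mmp13: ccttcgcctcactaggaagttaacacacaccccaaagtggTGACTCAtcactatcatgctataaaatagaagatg
These letters, on either strand within 250 bases before the start, were present in 5.94% of the promoters of tested genes that have a window, in 10.3% of those of genes called higher and 6.77% of those called lower. Among matrix genes with a window, 3 of 21 held them (14.3%): Mmp13, Plaur and Serpinb2. A match is a description of the letters and not a measured binding site.

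Contractile genes of myoepithelial cells were higher in part. Of 14 tested members 5 rose and none fell, beside 9.61% and 6.13% of all genes tested, with a median of 1.29. Tpm1, a tropomyosin, rose from 480 and 577 CPM to 1529.9 and 1206 CPM (1.37 ± 0.16, adjusted p = 0.00399), and Smtn, smoothelin, from 30.7 and 38.4 CPM to 103 and 84.7 CPM (1.44 ± 0.18, adjusted p = 0.00436). Mylk, the myosin light chain kinase of smooth muscle, rose from 0.535 and 0.797 CPM to 9.06 and 16.8 CPM (4.27 ± 0.73, adjusted p = 0.0116), but did not pass without EM of clone 1 or 2 (adjusted p = 0.0790 and 0.0540). The smooth muscle actin gene Acta2, a defining marker, stood at 0.491 and 1.501 CPM (EM) against 1.69 and 10.8 CPM (DM) (adjusted p = 0.129, and 0.00623 with the block), and the myosin Myh11 at 0.0892 and 1.03 against 0.137 and 1.02 CPM (adjusted p = 0.992). With the block 8 members rose, from the 4 WT libraries alone 3, and without EM 1, EM 2, DM 1 and DM 2 the count was 2, 3, 3 and 6.

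Interferon response genes rose in both clones. Of 30 members, all tested, 26 rose and none fell, with a median of 1.70, with the clone as a block all 30 rose, and from the 4 WT libraries alone 10 rose. Type I interferons turn on antiviral effectors through transcription factors that bind the interferon-stimulated response element. Among effectors, Rsad2 (viperin; ENSMUSG00000020641, chromosome 12, 26442746 to 26456452) went from 27.97 and 18.4 CPM (EM) to 207 and 171 CPM (DM) (3.03 ± 0.29, adjusted p = 0.00225). Ifi44, a cytoplasmic antiviral protein, went from 165 and 129 CPM to 786 and 709 CPM (2.34 ± 0.19, adjusted p = 0.00151), and Isg15, a ubiquitin-like modifier, from 121 and 46.3 CPM to 359 and 312 CPM (2.01 ± 0.42, adjusted p = 0.0217). Clone 1 had the higher EM level of each, and the DM levels of the clones were closer together.

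The guanylate-binding protein Gbp3 rose from 25.8 and 14.3 CPM to 78.1 and 77.0 CPM (1.95 ± 0.25, adjusted p = 0.00484). Among sensors and regulators, Ddx58, which encodes the RNA sensor RIG-I, rose from 104 and 74.5 CPM to 210 and 202 CPM (1.21 ± 0.16, adjusted p = 0.00542), and Irf1, a transcription factor, from 127 and 123 CPM to 229 and 232 CPM (0.88 ± 0.10, adjusted p = 0.00406). Irf7, a master regulator of interferon genes, rose from 203 and 98.6 CPM to 497 and 584 CPM (1.84 ± 0.32), and Ifit3 from 272 and 137 CPM to 1050.4 and 1208 CPM (2.46 ± 0.34; adjusted p at most 0.0125). The 4 members that were not called were Irf9 (0.56), Oas3 (1.18), Oasl2 (0.76) and Oas2 (0.66, log2), at adjusted p from 0.0502 to 0.233. The summed level of the list was 3479 and 2026 CPM (EM) against 8438 and 8137 CPM (DM). The rises numbered 29 without EM of clone 1, 23 without EM of clone 2, 21 without DM of clone 1 and 25 without DM of clone 2, and Isg15 did not pass without DM of clone 1 (adjusted p = 0.0662). Stat2 (1.16 ± 0.21) lost its call without DM of clone 1 or EM of clone 2, Mx1 (2.15 ± 0.44) without DM of clone 1, and Cxcl10 (1.46 ± 0.36) without DM of clone 2 or either EM library (adjusted p up to 0.164). Ifit, Oas and Gbp genes have close relatives, and reads shared between copies may have been split or dropped in counting.

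Promoters of 3 of these genes are shown with the letters of the interferon-stimulated response element core, GAAA, any 2 bases and GAAA on either strand, in capitals. Each is from RefSeq on GRCm38.p6, reads 5′ to 3′ along the gene's strand and stops short of the annotated start. The stretches are Rsad2 at chr12:26456523-26456612 (minus strand), Isg15 at chr4:156200835-156200936 (minus strand) and Ifit3 at chr19:34583333-34583456 (plus strand). Their last matches end 111 (Rsad2), 57 (Isg15) and 113 (Ifit3) bases before that start.
Rsad2: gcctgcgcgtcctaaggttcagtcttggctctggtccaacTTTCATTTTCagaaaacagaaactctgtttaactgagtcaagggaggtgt
Isg15: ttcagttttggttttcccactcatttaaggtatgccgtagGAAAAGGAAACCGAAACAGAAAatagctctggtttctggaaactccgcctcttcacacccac
Ifit3: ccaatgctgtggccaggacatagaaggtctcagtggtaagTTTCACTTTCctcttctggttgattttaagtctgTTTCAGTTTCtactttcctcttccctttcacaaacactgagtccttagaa
Isg15 holds 3 overlapping matches in 1 run, 78 to 57 bases before its start, Ifit3 holds 2 separate matches and Rsad2 holds 1, those of Ifit3 and Rsad2 reading on the opposite strand. Within 250 bases before the start, the core was present in 13 of the 23 interferon genes with a window (56.5%) and in 3.34% of the promoters of tested genes with a window. It was present in 58 of 1050 promoters of genes called higher (5.52%) and in 13 of 679 of genes called lower (1.91%). Binding was not measured.

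**Figure D3:**
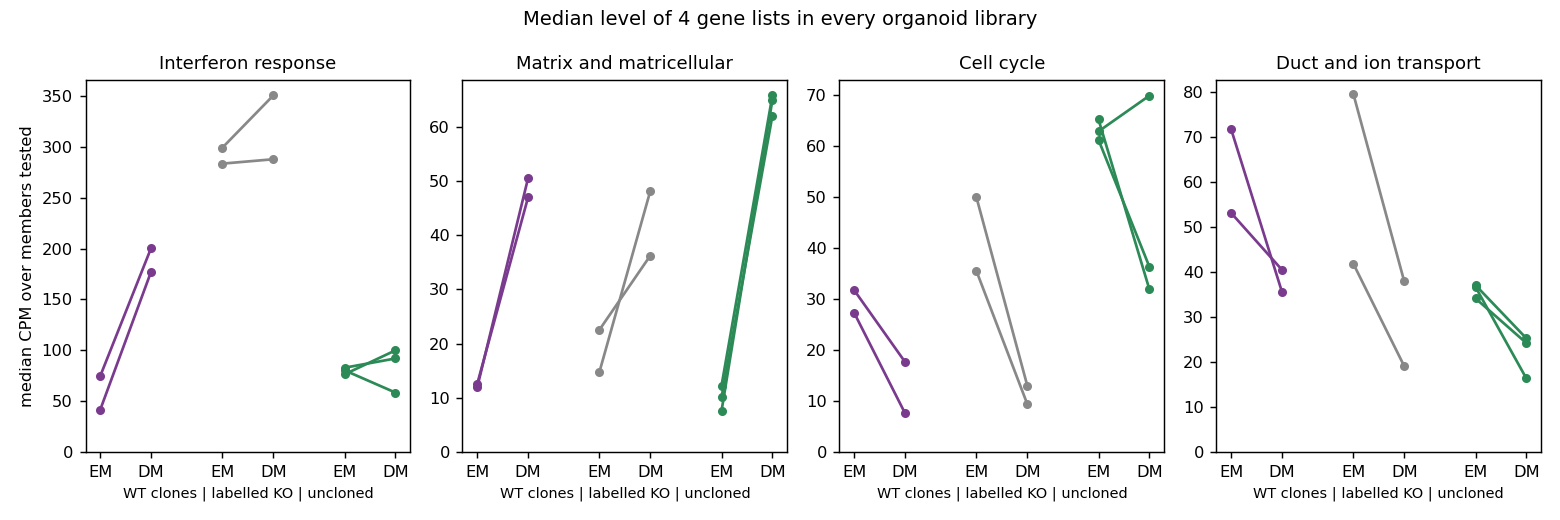
Median CPM over the tested members of 4 gene lists in every organoid library, with 1 line per clone or uncloned line from EM to DM; the uncloned lines have a scaling of their own. Interferon medians go from 74.7 and 41.6 to 201 and 177 CPM in the WT clones, and stand at 283 and 299 CPM already in EM of the clones labelled Pax6-KO.

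Genes for cytokines, chemokines and alarmins rose for 14 of 27 tested members and fell for 1, with a median of 0.88. Tslp, an epithelial alarmin, went from 17.0 and 13.9 CPM to 73.5 and 79.99 CPM (2.31 ± 0.14, adjusted p = 8.64e-04), and Ptgs2, the inducible cyclooxygenase, from 15.7 and 9.61 CPM to 165 and 104 CPM (3.41 ± 0.30, adjusted p = 0.00158). Csf2, the growth factor GM-CSF, had no count in EM and 11.03 and 7.29 CPM in DM, at least 136-fold higher. Tnfaip3, a feedback inhibitor of NF-kappaB (1.69 ± 0.15), and the chemokine Cxcl16 (1.14 ± 0.11) rose as well (adjusted p at most 0.00207). Other NF-kappaB targets stood closer to their EM level: Nfkbia at 161 and 131 against 176 and 181 CPM (0.29 ± 0.12, adjusted p = 0.162) and the chemokine Cxcl1 at 11.2 and 12.2 against 18.2 and 14.8 CPM (0.50 ± 0.21, adjusted p = 0.160). Nos2, the inducible nitric oxide synthase, stood at 13.0 and 3.66 CPM (EM) against 23.2 and 6.32 CPM (DM) (adjusted p = 0.483, and 0.0287 with the block). Ptges, a prostaglandin E synthase, fell from 558 and 479 CPM to 308 and 327 CPM (-0.71 ± 0.13, adjusted p = 0.0130), but lost its call without DM or EM of clone 1 (adjusted p = 0.0527 and 0.0735).

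Growth factors of the EGF family and feedback genes of MAPK signalling rose for 9 of 25 tested members and fell for none. Their median was 0.51, and the shares over all genes tested were 9.61% higher and 6.13% lower. The phosphatase Dusp4 rose from 42.8 and 40.5 CPM to 215 and 132 CPM (2.06 ± 0.24, adjusted p = 0.00404), and the ligand Btc, betacellulin, from 9.46 and 8.16 CPM to 20.3 and 19.3 CPM (1.17 ± 0.17, adjusted p = 0.00640). The ligands Hbegf (1.06 ± 0.20) and Areg (1.25 ± 0.24) rose (adjusted p at most 0.0174), and Dusp6, a common MAPK readout, stood at 51.8 and 52.4 against 62.3 and 56.1 CPM (adjusted p = 0.402). Dusp4 and Btc passed with any 1 library left out, while Hbegf did not pass without either EM library (up to 0.0875) and Areg passed only without DM of clone 2 (otherwise up to 0.0980). The list counted 2, 2, 3 and 9 rises without EM 1, EM 2, DM 1 and DM 2, and 3 from the 4 WT libraries alone.

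Wnt pathway genes moved in both directions. Of 23 tested members 5 rose and 8 fell, with a median of -0.57. Among feedback inhibitors, Axin2 (ENSMUSG00000000142, chromosome 11, 108920349 to 108950783) fell from 55.9 and 64.6 CPM to 27.6 and 26.1 CPM (-1.17 ± 0.12, adjusted p = 0.00250). Notum, a secreted Wnt deacylase, fell from 6.42 and 7.88 CPM to 0.320 and 0.911 CPM (-3.55 ± 0.67, adjusted p = 0.0154), but lost its call without DM of clone 1 or either EM library (adjusted p up to 0.0568). The receptor-degrading ligase Rnf43 fell from 37.1 and 38.2 CPM to 19.7 and 26.7 CPM (-0.70 ± 0.17, adjusted p = 0.0375), and did not pass under the same omissions (adjusted p up to 0.128). All of these were lower in both clones.

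Among receptors, Lgr6 rose as given above, whereas Lgr5, its relative in intestinal stem cells, stood at 2.81 and 1.59 CPM (EM) against 0.183 and 0.228 CPM (DM) (-3.39 ± 0.98, adjusted p = 0.0588, and 0.0347 with the block). Among ligands, Wnt6 fell from 4.01 and 6.10 CPM to 0.275 and 0.626 CPM (-3.49 ± 0.50), while Wnt7a rose from 0.268 and 0.750 CPM to 11.7 and 5.18 CPM (4.04 ± 0.61) and Wnt7b from 143 and 154 CPM to 271 and 265 CPM (0.85 ± 0.10; adjusted p at most 0.00760). Tnfrsf19, a Wnt target receptor, stood at 17.6 and 47.0 CPM (EM) against 1.24 and 17.0 CPM (DM) (-1.84 ± 0.98, adjusted p = 0.256, and 0.0109 with the block), with clone 2 higher in each medium. The falls numbered 3 without either EM library, 4 without DM of clone 1, 9 without DM of clone 2 and 5 from the 4 WT libraries alone, and the rises 4 or 5.

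Notch ligands moved in opposite directions. Jag1 rose from 85.5 and 89.1 CPM to 301 and 275 CPM (1.72 ± 0.11, adjusted p = 8.64e-04), and Jag2 fell from 230 and 234 CPM to 72.8 and 84.3 CPM (-1.56 ± 0.13, adjusted p = 0.00155). The receptor Notch1 fell from 314 and 307 CPM to 147 and 174 CPM (-0.96 ± 0.12, adjusted p = 0.00423), and Notch2 rose from 69.4 and 62.9 CPM to 97.5 and 95.8 CPM (0.55 ± 0.11, adjusted p = 0.0216). The spread between clones was small beside these differences. The target Hes1 stood at 121 and 141 against 154 and 177 CPM (0.33 ± 0.12, adjusted p = 0.105, and 0.0386 with the block), and Hey1 at 38.0 and 25.98 against 35.3 and 31.3 CPM (adjusted p = 0.887). In the list of 15 tested genes, 2 rose and 5 fell, beside 9.61% and 6.13% of all genes tested, with a median of -0.29. The falls numbered 2 without EM of clone 1, EM of clone 2 or DM of clone 1 and 3 from the 4 WT libraries alone, the rises 1 in each of these, and Notch2 did not pass under those omissions (adjusted p up to 0.111).

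Genes of duct cells and ion transport fell for 7 of 22 tested members and rose for 2, with a median of -1.12. The shares over all genes tested were 6.13% lower and 9.61% higher. Tfcp2l1, a transcription factor of duct and collecting duct epithelium (the collecting duct is the last tubule of the kidney), fell from 3162 and 3344 CPM to 219 and 445 CPM (-3.29 ± 0.35, adjusted p = 0.00274). The sodium pump subunit Atp1b1 fell from 280 and 279 CPM to 59.9 and 63.4 CPM (-2.18 ± 0.31, adjusted p = 0.00596). Scnn1a, a subunit of the epithelial sodium channel, fell from 52.4 and 75.1 CPM to 12.3 and 16.1 CPM (-2.17 ± 0.35, adjusted p = 0.00996). Pump, channel and the regulator were all lower in both DM libraries.

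The duct keratin Krt18 rose, opposite to the transport genes named above, while Krt8 and Krt19 were not called. Krt18 rose from 518 and 665 CPM to 1601 and 1465 CPM (1.37 ± 0.19, adjusted p = 0.00579). Krt8, its partner, stood at 324 and 107 CPM (EM) against 1012 and 402 CPM (DM) (1.71 ± 0.79, adjusted p = 0.191), and Krt19 at 482 and 173 CPM (EM) against 957 and 332 CPM (DM) (0.98 ± 1.15, adjusted p = 0.618). Clone 1 stood above clone 2 for both keratins in each medium, and with the clone as a block both rose (adjusted p = 4.69e-04 and 0.00281). With the block the list counted 6 rises and 12 falls. Without EM 1, EM 2, DM 1 and DM 2 the falls numbered 5, 4, 6 and 8 and the rises 1, 1, 3 and 2.

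Basal cell genes rose for 6 of 19 tested members and fell for 1, beside 9.61% and 6.13% of all genes tested. Their median was 0.22, and with the clone as a block 6 rose and 4 fell. The basal keratin Krt5 overlapped between the media. It was at 4151 and 3432 CPM (EM) against 4428 and 3289 CPM (DM) (0.03 ± 0.28, adjusted p = 0.967), and Trp63, the p63 transcription factor of basal cells, at 176 and 177 against 81.6 and 148 CPM (-0.62 ± 0.25, adjusted p = 0.146, and 0.0389 with the block). Lama3, a laminin chain that anchors basal cells to the basement membrane, rose (1.65 ± 0.14), as did Sox9 (1.34 ± 0.12; adjusted p at most 0.00182), a transcription factor of gland progenitors. Sfn, an adaptor protein of stratified epithelium, rose (1.31 ± 0.21, adjusted p = 0.00983) but did not pass without EM of clone 2 (adjusted p = 0.0534). Krt14 rose from 642 and 551 CPM to 1276 and 1322 CPM (1.12 ± 0.28, adjusted p = 0.0395) but lost its call with any 1 library left out (adjusted p up to 0.163). Without EM 1, EM 2, DM 1 and DM 2 the list counted 4, 3, 4 and 4 rises and 0, 0, 1 and 2 falls.

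Genes of keratinization and stratified epithelium rose for 4 of 28 and fell for 1, and those of mucins and claudins rose for 6 of 21 and fell for 1. Over all genes tested 9.61% rose and 6.13% fell, and the keratinization counts were near those shares. Keratinization rises numbered 2 without either EM library, 3 without DM 1 and 4 without DM 2, with no fall in any of these, and mucin and claudin rises 3, 4, 5 and 5 without EM 1, EM 2, DM 1 and DM 2, with 1 fall in each. Sprr2d, a cornified envelope protein and one of several close copies, rose from 9.95 and 5.86 CPM to 60.03 and 76.6 CPM (3.11 ± 0.41), and the desmosomal cadherin Dsg3 from 130 and 91.2 CPM to 545 and 315 CPM (1.96 ± 0.30; adjusted p at most 0.00802). The envelope precursor Ivl, involucrin, stood at 29.6 and 20.8 against 21.5 and 17.2 CPM (adjusted p = 0.426). Muc16, a membrane mucin of the ocular surface, rose from 3.39 and 6.89 CPM to 56.1 and 35.1 CPM (3.15 ± 0.39, adjusted p = 0.00438), and Cldn1, a barrier-forming claudin, from 1.96 and 2.81 CPM to 68.0 and 36.8 CPM (4.46 ± 0.44, adjusted p = 0.00232), while Cldn8 fell as given above. Cldn4 rose as well (1.01 ± 0.20, adjusted p = 0.0194), but lost its call without DM or EM of clone 1 (adjusted p up to 0.0996). The claudins named here therefore did not move as 1 group.

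Most secreted tear proteins and acinar genes were not called, as over all genes tested, where 9.61% rose and 6.13% fell. Of 28 tear protein genes 11 had enough counts to test, and 2 rose and 1 fell. These calls depended on single libraries, and from the 4 WT libraries alone 1 rose and none fell. Ltf, lactoferrin, stood at 7393 and 8828 CPM (EM) against 6535 and 9466 CPM (DM) (-0.02 ± 0.26, adjusted p = 0.973). Lcn2, a siderophore-binding lipocalin, stood at 2874 and 2999 CPM (EM) against 1892 and 7815 CPM (DM) (adjusted p = 0.469), so it lay below the EM level in clone 1 and above it in clone 2. Clu, the secreted chaperone clusterin, rose from 355 and 493 CPM to 1599 and 2333 CPM (2.21 ± 0.26, adjusted p = 0.00391), and Wfdc18, of the whey acidic protein family, from 266 and 537 CPM to 1199 and 3424 CPM (2.53 ± 0.53, adjusted p = 0.0216), though not without EM of clone 1 (adjusted p = 0.108).

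Of 25 acinar genes 5 rose and 1 fell, with a median of -0.027. Both counts depended on single libraries, and from the 4 WT libraries alone 5 rose and none fell. Kcnn4, a calcium-activated potassium channel of secretion, rose from 4.37 and 2.72 CPM to 73.4 and 45.5 CPM (4.06 ± 0.31, adjusted p = 0.00136). The granule regulator Rab27b (1.64 ± 0.19) and the calcium release channel Itpr3 (0.82 ± 0.10) rose (adjusted p at most 0.00432). Aqp5, the apical water channel of acinar cells, rose from 4.46 and 3.61 CPM to 20.9 and 29.6 CPM (2.64 ± 0.42, adjusted p = 0.00970), but gave adjusted p = 0.0523 and 0.0540 without EM of clone 1 and 2. Bhlha15, which drives the maturation of secretory cells, stood at 2.63 and 1.22 CPM (EM) against 0.961 and 0.626 CPM (DM) (adjusted p = 0.154).

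Of 14 retinoid genes 3 rose and 1 fell, the fall being lost without either EM library; Adh7, which can oxidise retinol but is not on that list, fell as given above. Aldh1a3, which makes retinoic acid, went from 119 and 62.6 CPM to 1841 and 1339 CPM (4.13 ± 0.35, adjusted p = 0.00151), and the retinol dehydrogenase Rdh10 from 29.8 and 45.2 CPM to 157 and 271 CPM (2.51 ± 0.31, adjusted p = 0.00450). Readouts of retinoic acid were Rarb, a receptor, at 40.7 and 28.4 against 57.8 and 50.1 CPM (0.64 ± 0.19, adjusted p = 0.0592, and 0.0117 with the block), and Cyp26b1, which degrades it, at 6.69 and 14.3 against 16.2 and 18.3 CPM (adjusted p = 0.238). Of 26 transcription regulators of lacrimal gland and eye, 4 rose and 4 fell, beside 9.61% and 6.13% of all genes tested. The rises and falls numbered 1 and 0 without EM 1, 3 and 3 without EM 2, 2 and 0 without DM 1, 2 and 6 without DM 2, and 1 and 1 from the 4 WT libraries alone. Runx1 rose (1.13 ± 0.18, adjusted p = 0.00992; 0.0627 without EM of clone 1), and the homeobox genes Otx1 (-0.62 ± 0.11) and Six2 (-0.66 ± 0.12) fell (adjusted p at most 0.0145), though not without DM or EM of clone 1 (adjusted p up to 0.0866).

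Cell division genes had a lower median in DM in both clones, and the lower of the pair was clone 2. Of 36 members 7 fell and 1 rose, beside 6.13% and 9.61% of all genes tested, with a median of -1.22. With the clone as a block 25 fell and 1 rose. Mki67, a marker of cycling cells, stood at 84.1 and 53.4 CPM (EM) against 29.2 and 8.995 CPM (DM) (-1.84 ± 0.50, adjusted p = 0.0489). The DNA topoisomerase Top2a stood at 110 and 80.8 against 53.4 and 15.4 CPM (-1.47 ± 0.50, adjusted p = 0.0942, and 0.00667 with the block), and the replication clamp Pcna at 60.2 and 58.7 against 57.7 and 40.9 CPM (adjusted p = 0.433). The median ratio over the list was -0.73 in clone 1 and -1.76 in clone 2 (log2 of CPM plus 0.5). The 1 gene that rose was Ccne1, cyclin E1 (1.38 ± 0.29, adjusted p = 0.0218). The count of falls rested on single libraries: 0 fell without EM of clone 1, 1 without EM of clone 2, 23 without DM of clone 1, 2 without DM of clone 2 and 0 from the 4 WT libraries alone. Without EM of clone 1 or 2, Mki67 gave adjusted p = 0.194 and 0.0758, and Ccne1 passed only without DM of clone 2 (otherwise up to 0.108).

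Antioxidant genes fell in part, and the lists of cholesterol synthesis and the unfolded protein response held few calls, beside 9.61% higher and 6.13% lower over all genes tested. Falls among hypoxia and glycolysis genes and among p53 targets were above that share, but their counts depended on single libraries. Of 20 antioxidant genes 6 fell and none rose, with 3 falls without EM of clone 1 and 4 or 5 without another library: Gstm1, a glutathione transferase, fell from 74.6 and 77.7 CPM to 21.6 and 22.4 CPM (-1.79 ± 0.15), Gclc, which makes the precursor of glutathione, from 211 and 203 CPM to 66.9 and 82.6 CPM (-1.47 ± 0.14), and catalase, Cat, from 209 and 256 CPM to 103 and 120 CPM (-1.06 ± 0.17; adjusted p at most 0.00970). The classical NRF2 targets Nqo1 and Hmox1 gave adjusted p = 0.739 and 0.864, with EM and DM libraries that overlapped. Of 23 genes of hypoxia and glycolysis 4 fell and none rose, 9 fell with the block, and 0, 2, 1 and 4 fell without EM 1, EM 2, DM 1 and DM 2. Of 20 p53 targets 2 rose and 4 fell, with 0 and 1 without EM of clone 1, 2 and 1 without EM of clone 2, and 0 and 1 from the 4 WT libraries alone: Sesn1, a stress-induced inhibitor of growth signalling, fell from 50.9 and 49.1 CPM to 15.6 and 17.0 CPM (-1.62 ± 0.13, adjusted p = 0.00148), and Cdkn1a, the cell cycle inhibitor p21, rose from 206 and 227 CPM to 334 and 339 CPM (0.64 ± 0.11, adjusted p = 0.0129; 0.0843 without EM of clone 1). Cholesterol synthesis genes numbered 1 rise and 1 fall of 24. Of 20 genes of the unfolded protein response none was called by edgeR from all 8 clone libraries without the block, and 4 rose with it. The count without the block changed when DM of clone 2 was left out.

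**Figure D4:**
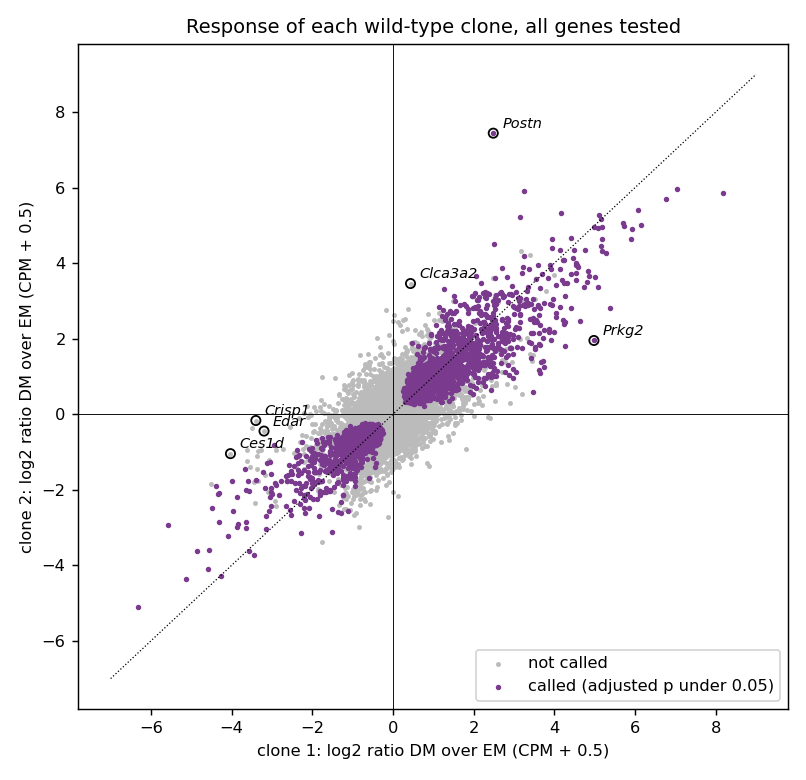
Log2 ratio of DM over EM (CPM plus 0.5) in clone 1 (x axis) and clone 2 (y axis) for the 14282 tested genes, 1 library per clone and medium, with called genes in purple, uncalled in grey and the dotted line at equal ratios. Called genes lie in the 2 quadrants where both clones moved the same way, and the 6 circled genes are those with the largest difference between clones.

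The clones differed most in a few genes, listed here as a description since each ratio rests on 1 library per medium. Postn stood at 0.178 and 0.141 CPM (EM) against 3.29 and 111 CPM (DM), a log2 ratio of 2.48 in clone 1 and 7.44 in clone 2, and its call (adjusted p = 0.0280) was lost without EM of clone 1 or 2 (adjusted p = 0.142 and 0.131). Prkg2, a cGMP-dependent kinase, went from 0.0892 to 18.1 CPM in clone 1 and from 0.469 to 3.25 CPM in clone 2, and its call (adjusted p = 0.0179) was lost without EM of clone 1 (adjusted p = 0.0957). Clca3a2, a calcium-activated chloride channel regulator, stood at 13.0 CPM in EM and 17.8 CPM in DM of clone 1, and at 4.64 and 56.0 CPM in clone 2. The largest differences toward lower DM levels were all in clone 1.

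Crisp1, a cysteine-rich secretory protein, stood at 54.6 CPM in EM and 4.71 CPM in DM of clone 1, and at 9.14 and 8.08 CPM in clone 2. The carboxylesterase Ces1d stood at 183 and 10.7 CPM in clone 1 and at 162 and 78.3 CPM in clone 2 (adjusted p = 0.120, and 0.0301 with the block). Edar, the ectodysplasin receptor of ectodermal appendages, stood at 12.5 and 0.915 CPM in clone 1 and at 11.7 and 8.43 CPM in clone 2.

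The response was next set against that of the 2 clones labelled Pax6-KO, whose EM and DM libraries share the count table. Their own comparison called 706 genes higher (4.94%) and 487 lower (3.41%). No gene passed the edgeR test of the difference between the responses, while 1126 of 14282 had an unadjusted p under 0.05 and DESeq2 called 198. With the clone as a block, edgeR called 70 genes (0.49%), 64 with the larger value in WT (0.448%) and 6 with the smaller (0.042%). Without DM of WT clone 2, 12 were called without the block. Of the interferon list, 26 of 30 rose in WT and 0 in the labelled KO clones, whose median change was 0.22, and 3 members differed with the block: Rsad2, Ifi44 and Stat2. The medians of the list were already 283 and 299 CPM in EM of the labelled KO clones and 288 and 350.4 CPM in their DM. Rsad2 stood at 418 and 346 CPM there in EM and at 357 and 558 CPM in DM (difference of responses 2.82 ± 0.31, adjusted p = 0.0255 with the block and 0.243 without).

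The 6 genes with the lowest p in the blocked test included 5 that rose in WT. Ccl5, a chemokine, stood at 9.37 and 5.81 CPM (EM) against 141 and 76.9 CPM (DM) of the WT clones, and at 88.8 and 68.9 against 115 and 124 CPM in the labelled KO clones (difference 3.22 ± 0.20). Sox7, a transcription factor of the SoxF group, stood at 3.70 and 6.10 against 23.7 and 44.6 CPM in WT and at 41.2 and 58.0 against 39.5 and 60.7 CPM in labelled KO (2.78 ± 0.17). Itga2, a collagen-binding integrin, stood at 17.6 and 10.8 against 396 and 198 CPM in WT and at 104 and 87.4 against 222 and 243 CPM in labelled KO (3.07 ± 0.19). In all 3 the EM level of the labelled KO clones was above that of the WT clones, and their DM levels were nearer. Palmd, paralemmin-like palmdelphin (2.93 ± 0.23), and Pmepa1 (2.31 ± 0.19) also had the larger rise in WT. Tmprss4, a membrane serine protease, stood at 137 and 137 against 134 and 147 CPM in WT and fell in labelled KO from 106 and 155 CPM to 27.1 and 46.4 CPM (1.88 ± 0.15). These 6 had adjusted p from 0.00472 to 0.0107 with the block and at least 0.243 without it.

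Uncloned organoids, counted in another table together with gland tissue, gave another set of libraries for the same media, with 3 lines per medium. Their comparison called 2352 genes higher (17.2%) and 1806 lower (13.2%) of 13713, or 1952 and 2597 with total-count scaling. Of 12482 genes tested in both tables, 973 rose in both, which is 75.4% of the 1290 rises in WT clones and 43.7% of the 2229 in uncloned organoids. A further 545 fell in both, 65.1% of 837 and 31.3% of 1740. Of the WT rises 95.3% had a higher value in uncloned DM too, against 49.0% of all genes, and of the WT falls 96.9% had a lower one, against 50.9%. The opposite call was made for 3 rises and 2 falls.

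**Figure D5:**
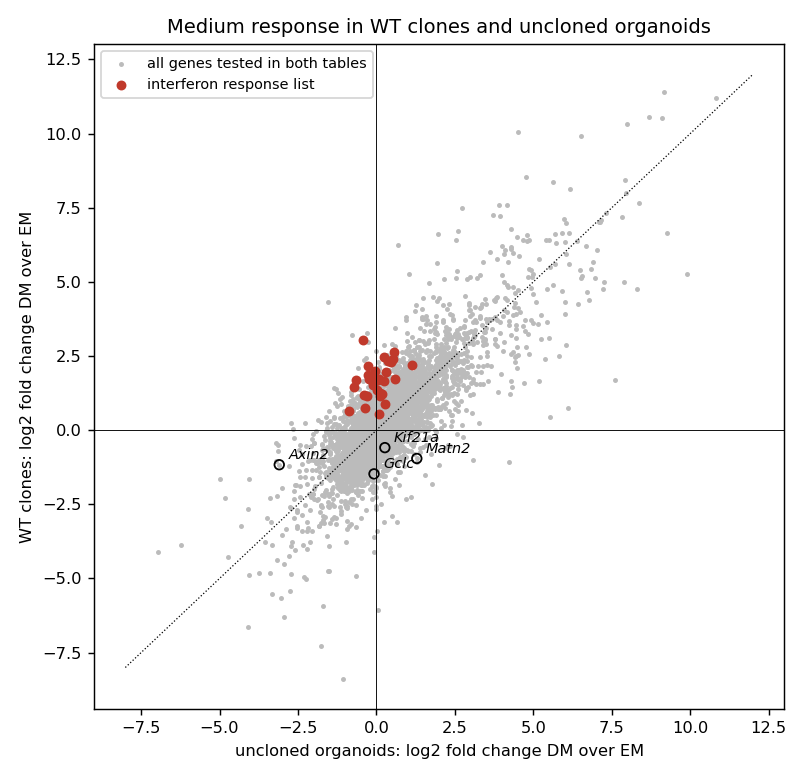
Log2 fold change of DM over EM in WT clones (y axis) against uncloned organoids (x axis) for genes tested in both tables, with the interferon list in red, 4 genes whose responses differed circled, and the dotted line at equal change. The cloud runs along the diagonal, while interferon genes lie above it, with values around 0 on the x axis.

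Matrix and TGF-beta genes rose in both sets. Inhba stood at 4.25 ± 1.19 CPM in uncloned EM and 124 ± 72.1 CPM in uncloned DM (SD, n = 3; 4.86, adjusted p = 2.97e-05 from edgeR), of the BMP and TGF-beta list 16 of 24 rose and 2 fell there, and of the matrix list 24 of 36 rose and 2 fell. The interferon list gave 3 rises of 30 in uncloned organoids, Gbp2, Irf1 and Irgm1, with a median of 0.067. Rsad2 stood at 31.2 ± 12.5 CPM in uncloned EM and 23.0 ± 9.23 CPM in uncloned DM (n = 3 each), and Isg15 at 133 ± 13.9 and 129 ± 57.6 CPM. A test of the difference between the responses, chosen after seeing the data, called 4 of 14249 genes (0.0281%), 1 with the larger value in WT clones (0.00702%) and 3 with the smaller (0.0211%), and 1848 at an unadjusted p under 0.05. None of the 4 was an interferon gene. With a block on clone and line it called 60 genes (0.421%) and 31 genes (0.218%), 0.639% in either direction, including 7 of the 30 interferon genes: Cxcl10, Ifi44, Mx1, Rsad2, Stat2, Usp18 and Xaf1. Cell division genes fell for 1 of 36 in uncloned organoids, and Mki67 stood at 389 ± 37.8 CPM in EM and 221 ± 115 CPM in DM (n = 3 each), with line 8 at 351 CPM in DM. Mylk, Acta2 and Aqp5 rose in uncloned organoids, Acta2 from 5.74 ± 0.465 to 118 ± 59.3 CPM (adjusted p = 6.39e-06 from edgeR) and Aqp5 from 1.92 ± 0.280 to 22.1 ± 2.10 CPM (adjusted p = 4.88e-07 from edgeR; n = 3 each). The tables were counted over different sets of gene IDs and scaled apart, so levels are compared within each only.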

How the data were processed

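Polyadenylated RNA was sequenced with a stranded library kit, per the labels' protocols. The submitters' processing notes name STAR, featureCounts and GRCm38, without versions or a strand setting. What the authors deposited are raw whole-number counts per gene. In the clone table, symbols and positions from GENCODE M21 were found for 55227 of 55487 gene IDs (0.00821% of counts had none), and 14282 genes passed edgeR's filterByExpr.

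Counts were fitted in R 4.3.3 with edgeR 4.0.16 (quasi-likelihood F test, trimmed-mean scaling) with a mean per group over all 8 clone libraries and 4 residual degrees of freedom, which share 1 estimate of the spread. Fits with the clone as a block leave fewer residual degrees of freedom, since each clone takes a term of its own. Each SE was taken as the size of the log2 fold change over the root of its F. Uncloned organoids were fitted with the 9 libraries of their table. Of these, 3 were gland tissue, so their scaling and estimate of the spread did not come from organoids alone. Where a group had no count, the fold is a bound set by 3 counts over that group, and against 1 to 3 counts a ratio has an exact 95% Poisson interval; these cover counting error only. The numbers pair the samples because the labels give the same clone in both media; deviations from the group means correlated at 0.60 between EM and DM of the WT clones and 0.51 in those labelled Pax6-KO. When 1 library is left out, the remaining one is assumed to vary like the other groups.

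Named genes were Pax6, the 10 largest rises and falls among called genes of at least 10 CPM without predicted genes, defining members and up to 5 called members with the lowest p of each list (not all of these are printed), the 6 largest clone differences and the 6 lowest p in the blocked test against labelled KO clones. Irf7, Ifit3, Mmp13, Timp1, Plau, Plaur, Bmp7, Tgfb1, Id3, Rnf43, Sesn1 and the other members named beside those were added after their values were seen. The members and the 30 lists (708 entries, 1 unmatched) were chosen with earlier results of these data known. Promoters are RefSeq sequences on GRCm38.p6. Alternatives were DESeq2 1.42.0, its size factors, total-count scaling, other filters, fewer libraries and the block. The steps were tested on simulated data in which libraries varied independently, with no clone effect. That test does not check how the fits handle paired clones. A few items of the lists are not reported here.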

Additional observations from a re-analysis of the deposited data

Results flagged for a closer look

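The medium response of the WT clones and of uncloned organoids was compared gene by gene in 1 edgeR fit of both tables, a test chosen after seeing the data. It called 4 of 14249 genes (0.0281%) as different between these cultures, while 1848 had an unadjusted p under 0.05. Axin2 fell less in the WT clones, from 55.9 and 64.6 to 27.6 and 26.1 CPM, than in uncloned organoids, from 23.2 ± 1.54 to 2.70 ± 0.392 CPM (SD, n = 3), a difference of 1.91 ± 0.17 (adjusted p = 0.00266 from edgeR). Matn2, a matrilin of the extracellular matrix, stood at 16.6 and 13.4 against 6.68 and 8.77 CPM in WT clones and rose from 7.11 ± 0.474 to 17.3 ± 2.22 CPM in uncloned organoids (n = 3), a difference of -2.26 ± 0.31 (adjusted p = 0.0421 from edgeR). Kif21a, a kinesin, stood at 175 and 176 against 108 and 125 CPM in WT clones and at 97.3 ± 2.86 against 117 ± 4.46 CPM in uncloned organoids (n = 3), a difference of -0.88 ± 0.12 (adjusted p = 0.0421 from edgeR). Gclc fell in WT clones, from 211 and 203 to 66.9 and 82.6 CPM, and stood at 38.4 ± 3.30 and 36.4 ± 4.15 CPM in uncloned organoids (n = 3), a difference of -1.42 ± 0.17 (adjusted p = 0.0316 from edgeR). The call of Axin2 held with any 1 library left out and with total-count scaling (adjusted p up to 0.0205 from edgeR). The other 3 calls depended on single libraries. All 3 were lost without EM or DM of WT clone 1, EM of WT clone 2, DM of uncloned line 6 or EM of uncloned line 6, 7 or 8, and Matn2 and Kif21a also without DM of uncloned line 7 (adjusted p up to 0.168 from edgeR). Total-count scaling gave adjusted p = 0.0505 for Gclc and Matn2 and 0.0482 for Kif21a from edgeR. The tables differ in gene IDs and depth, and cultures and tables cannot be told apart. Groups of 2 or 3 libraries were too small for a check of single outlying libraries.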

How the results depend on the processing

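No named gene that was called in the WT comparison changed sign under an alternative run, while 25 of 70 uncalled ones did. List medians near 0 also changed sign with 1 library left out: tear proteins (-0.0197; -0.63 to 0.43), acinar genes (-0.027; -0.052 to 0.23), gland and eye regulators (-0.084; -0.31 to 0.083), cholesterol synthesis (-0.11; -0.18 to 0.010), unfolded protein response (0.16; -0.058 to 0.29), cornea and conjunctiva (0.20; -0.25 to 0.19) and salivary gland (-0.037; -1.73 to 0.61). Genes called higher and lower in the WT clones numbered 2122 and 1528 with the replicate block, 2110 and 1387 with no filter on low counts, 640 and 261 with only the 4 WT libraries, and 586 to 1209 and 215 to 770 with each library left out. Total-count scaling gave 1209 and 1144, which moves the share of rises among calls, and moved the median of all genes from 0 to -0.0722 (log2). The difference from labelled KO clones called 0 and 0 without a block, 64 and 6 with it, 158 and 40 with DESeq2, 503 and 154 with no filter, and 0 to 4 and 0 to 8 with each library left out (4 and 8 without DM of WT clone 2). Uncloned calls with each library left out numbered 1742 to 2745 higher and 1034 to 2561 lower, and 2597 lower with total-count scaling. The lower calls fell to 1034, 1142, 1177 and 1170 without DM of line 6, DM of line 7, EM of line 7 and EM of line 8. The difference from uncloned organoids called 1 and 3 genes, 60 and 31 with the block, 224 and 145 with DESeq2, 1 and 1 with total-count scaling, and 1 to 95 and 0 to 149 with each library left out (95 and 149 without DM of WT clone 2, 61 and 21 without uncloned DM of line 8). The cause of these shifts was not tested. In all, 24 of 221 named genes, those printed in the text included, gained a call with the block and none lost one. With 2 libraries a side, small changes of variable genes could not be called, and genes under a few CPM carry wide counting error.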
